A study of Mus musculus with 12 samples.

Results

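Cholesterol synthesis and handling was followed through 28 genes in livers of mice that lacked factor VII-activating protease (FSAP) and of wild-type (WT) littermates, after bile duct ligation (BDL) or a sham operation. The 28 genes were taken from a given list by the gene name in the array files, out of 31870 names on the array, and all 28 were measured. They comprised 17 enzymes of cholesterol synthesis, 6 genes that control synthesis or carry sterol within the cell, and 5 genes of cholesterol esterification and export. Each was represented by the brightest of its probes, and all 28 were well above background on every one of the 12 arrays.

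Its title presents the study as one of FSAP as a brake on fibrosis in the liver. The 4 groups were FSAP-deficient mice after BDL, FSAP-deficient mice after the sham operation, WT mice after BDL and WT mice after the sham operation, with 3 mice each and 1 array per mouse. All mice came from heterozygous crosses after backcrossing to the BalbC background as far as generation F3, and were 20 to 30 weeks old at use. Livers were taken 2 weeks after surgery. FSAP is a circulating protease made in the liver and encoded by Habp2, and both copies were deficient in the FSAP-deficient mice. BDL closes the common bile duct so that bile cannot leave the liver, while the sham operation left the duct open. The labels give neither the deleted part of Habp2 nor the sex of the mice.

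Cells build cholesterol from acetyl-CoA through mevalonate, farnesyl diphosphate, squalene and lanosterol. When sterol in the endoplasmic reticulum is low, the escort protein SCAP carries the transcription factors of the SREBP family to the Golgi, where they are cut and released to the nucleus to switch on the genes of the pathway. INSIG proteins hold SCAP back when sterol is plentiful. The liver also disposes of cholesterol, by turning it into bile acids, by secreting it into bile through the transporter pair ABCG5 and ABCG8, by esterifying it and by passing it to lipoproteins through ABCA1.

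The bases just upstream of the genes are shown because SREBP-2 is known to bind sterol regulatory elements there, together with the factors NF-Y and Sp1. RefSeq windows on GRCm38.p6 were at hand for 23 of the 28 genes, and the 250 bases before the annotated start were searched on both strands for 3 strings of letters. These were TCACNCCAC, which stands for a sterol regulatory element, CCAAT, the NF-Y string, and GGGCGG, the Sp1 string. Below are 3 enzymes and both INSIG genes, 5′ to 3′ on the strand of the gene, with matches to TCACNCCAC and to CCAAT on either strand in capitals, so that ATTGG marks CCAAT on the opposite strand. Hmgcs1 is shown as the member with the sterol regulatory element string, Ebp for its steady fall after BDL, Acat2 as the enzyme that hardly moved, and the INSIG genes because they moved in opposite directions. No match of one of these 2 strings overlapped a match of the other. Hmgcs1 lies at chr13:119690101-119690350 on the plus strand, Ebp at chrX:8193513-8193762 on the minus strand and Acat2 at chr17:12960726-12960975 on the minus strand. The window of Insig1 is chr5:28071162-28071411 on the plus strand, and that of Insig2 is chr1:121332590-121332839 on the minus strand, the most upstream of its 3 annotated starts. The windows of the other Insig2 starts held no CCAAT.
Hmgcs1: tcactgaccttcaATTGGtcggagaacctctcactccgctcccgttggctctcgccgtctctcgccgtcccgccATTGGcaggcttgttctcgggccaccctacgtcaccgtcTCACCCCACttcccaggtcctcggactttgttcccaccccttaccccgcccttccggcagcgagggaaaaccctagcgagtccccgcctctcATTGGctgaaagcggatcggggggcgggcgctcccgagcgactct
Ebp: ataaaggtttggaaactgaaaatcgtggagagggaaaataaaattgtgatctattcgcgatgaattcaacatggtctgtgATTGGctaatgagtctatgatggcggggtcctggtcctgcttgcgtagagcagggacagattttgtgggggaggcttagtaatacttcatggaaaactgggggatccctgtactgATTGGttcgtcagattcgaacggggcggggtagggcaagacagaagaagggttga
Acat2: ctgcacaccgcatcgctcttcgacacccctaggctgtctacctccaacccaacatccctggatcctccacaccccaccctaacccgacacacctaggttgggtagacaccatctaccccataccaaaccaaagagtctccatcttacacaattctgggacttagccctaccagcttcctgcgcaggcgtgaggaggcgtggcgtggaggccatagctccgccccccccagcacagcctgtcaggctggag
Insig1: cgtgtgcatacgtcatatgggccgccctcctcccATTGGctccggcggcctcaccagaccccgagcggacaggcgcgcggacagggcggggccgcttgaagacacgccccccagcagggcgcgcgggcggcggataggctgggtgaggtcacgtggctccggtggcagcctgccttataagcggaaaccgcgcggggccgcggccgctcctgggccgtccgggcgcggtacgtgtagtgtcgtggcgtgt
Insig2: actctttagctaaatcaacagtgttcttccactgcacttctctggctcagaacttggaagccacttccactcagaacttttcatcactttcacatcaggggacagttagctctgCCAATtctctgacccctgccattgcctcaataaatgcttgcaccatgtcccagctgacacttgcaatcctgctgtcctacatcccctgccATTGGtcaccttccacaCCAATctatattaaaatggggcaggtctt

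A gene was counted if any of its windows matched. Among the genes with a window, CCAAT stood in 13 of 14 enzymes (92.9%) and 6 of 9 other members (66.7%), and in 37.5% of 27025 genes of the same RefSeq table. Counted by window, CCAAT stood in 62.5% of 32 member windows and in 33.8% of all 32851 windows. Acat2 was the enzyme without CCAAT. The Sp1 string had the same member counts, 13 of 14 and 6 of 9, against 35.4% of all genes. TCACNCCAC stood in 1 of 14 enzymes, Hmgcs1, where TCACCCCAC began 137 bases before the start, in 0 of 9 other members and in 1.22% of all genes. These are matches of letters in one window per annotated start and do not show that a factor binds.

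Expression was measured as the log2 of the background-subtracted signal minus the 75th percentile of the same array, so 0 is the 75th percentile and 1 unit is a doubling of signal. Such levels are comparable between arrays for 1 probe, not between probes. Changes were tested with limma over 19531 genes, and "rose" and "fell" stand for an adjusted p below 0.05 after Benjamini-Hochberg correction. Errors beside a change are standard errors (SE) of that model with n = 3 arrays per group. Probe positions are those the files give, on mm9. Which exon each probe lies in was not looked up.

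Habp2 itself stood between 4.97 and 5.51 on the 6 WT arrays. On 5 of 6 FSAP-deficient arrays it was not well above background, and on FSAP-deficient sham replicate 1 it was, at -3.45. Y-linked Ddx3y and Eif2s3y were well above background on FSAP-deficient sham replicate 1 and on FSAP-deficient BDL replicates 1 and 2, and on none of the 6 WT arrays. Xist, a transcript of female cells, was not well above background on those same arrays, at -7.52, -7.14 and -6.97, and was on all others. By these genes those mice were male and all other mice, with every WT mouse, female. Sex was thus uneven over the groups, and its part in the comparisons below was not tested. The arrays lay on 4 slides, of which slide 3 held FSAP-deficient mice of both surgeries and slide 1 held WT mice of both surgeries, while no slide held both genotypes after the same operation. Hepatocyte markers were well above background on every array, 8 of 8, with a summed signal, in multiples of the 75th percentile, of 2755 to 3727 after BDL and 3899 to 4161 after sham in FSAP-deficient livers, and of 2869 to 5528 after BDL and 3664 to 4291 after sham in WT livers. Of these 8 markers, 4 fell and 0 rose after BDL in FSAP-deficient livers, with a median change of -0.48, and 3 fell and 1 rose in WT livers, with a median change of -0.03. Cholangiocyte markers summed to 10.3 to 42.3 after BDL and 0.615 to 1.08 after sham in FSAP-deficient livers, and to 11.8 to 15.2 and 0.911 to 0.998 in WT livers. Macrophage, stellate cell and neutrophil markers also rose, in 8 of 8, 6 of 7 and 2 of 4 genes in FSAP-deficient livers and in 7 of 8, 3 of 7 and 2 of 4 genes in WT livers, and all 6 cholangiocyte markers rose in both. Stellate cell markers summed to 38.6 to 136.8 after BDL and 3.20 to 3.65 after sham in FSAP-deficient livers, and to 8.78 to 36.0 and 3.63 to 4.53 in WT livers. Macrophage markers summed to 65.8 to 77.1 and 19.9 to 28.3 in FSAP-deficient and to 50.6 to 64.9 and 22.5 to 33.8 in WT livers, in the same order. Neutrophil markers summed to 19.8 to 65.1 and 2.43 to 7.92 in FSAP-deficient and to 20.2 to 68.5 and 4.28 to 13.4 in WT livers. Of 3 tested markers of steroidogenic tissue, 1 (Cyp21a1) rose in both genotypes. In whole liver, fewer cells of a type and less RNA per cell cannot be told apart, and the part of these cell types in the results below was not tested.

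After BDL 8 of 17 synthesis enzymes (47.1%) fell in FSAP-deficient livers and 9 of 17 (52.9%) fell in WT livers, and none rose in either. The log2 change was negative for 17 of 17 enzymes in FSAP-deficient livers, with a median of -1.53, and for 17 of 17 in WT livers, with a median of -1.74. Over all tested genes the medians were -0.16 in FSAP-deficient and -0.03 in WT livers. Every BDL array lay below every sham array for 15 of 17 enzymes in FSAP-deficient livers, against 28.6% of all tested genes, and for 11 of 17 in WT livers, against 28% of all tested genes. Among the 28 members, 15 fell and 0 rose in FSAP-deficient livers, none rising at an unadjusted p below 0.05 either, where 22.8% of all tested genes fell, 16.2% rose and 39% changed in either direction. In WT livers 14 members fell and 2 rose, where 17.7% of all tested genes fell, 15.1% rose and 32.8% changed. The same 12 members fell in both genotypes, 3 passed the threshold downward in FSAP-deficient but not in WT livers (Mvk, Lcat and Abcg5), and 2 in WT but not in FSAP-deficient livers (Mvd and Dhcr7). Insig2 and Abca1 were the 2 that rose in WT livers. The 9 members past the threshold in neither genotype were Acat2, Hmgcs1, Idi1, Sqle, Lss, Cyp51, Nsdhl, Srebf2 and Soat2.

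**Figure D1:**
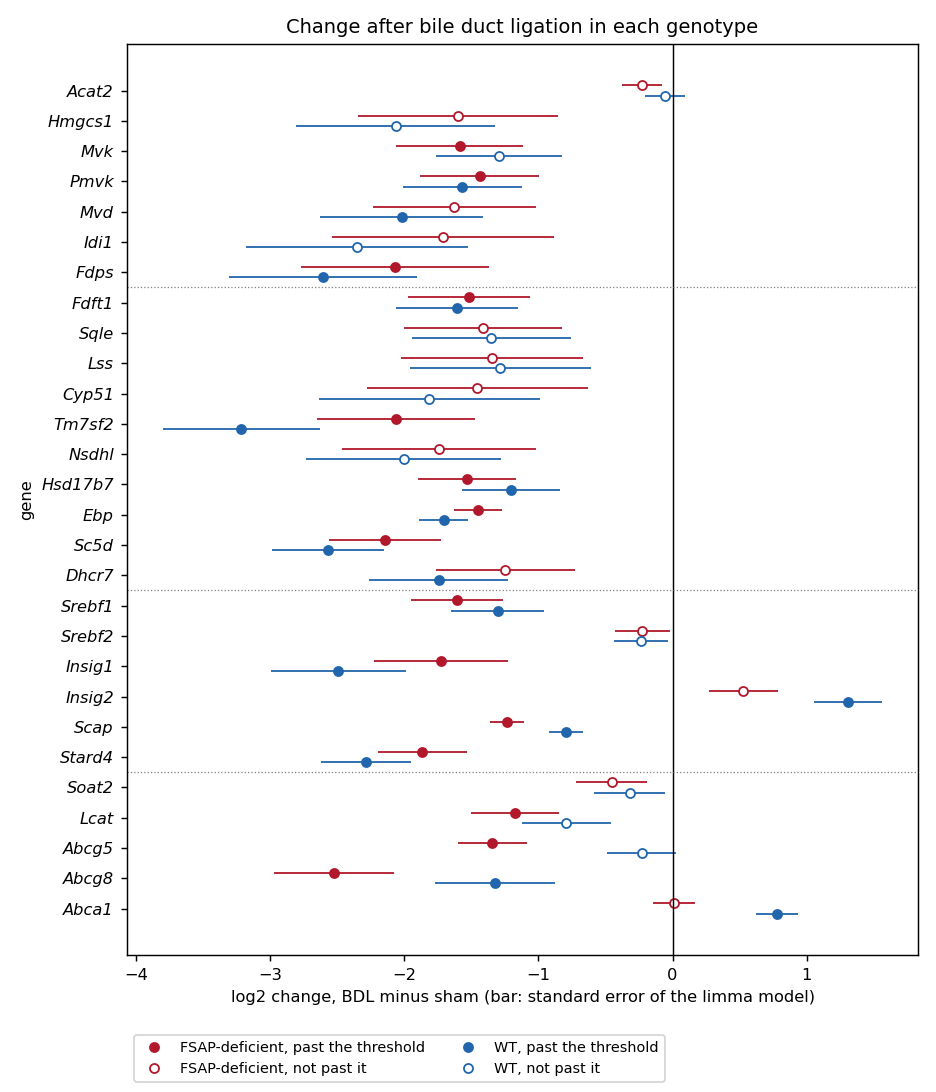
Log2 change after BDL relative to sham for each of the 28 genes, in FSAP-deficient livers (red, upper point of each pair) and WT livers (blue, lower point), with bars of 1 SE from limma and n = 3 arrays per group; filled points passed the threshold. All 17 enzymes lie left of 0 in both genotypes, Insig2 lies right of 0 in both, and Abca1 lies at 0.01 in FSAP-deficient and 0.78 in WT livers.

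These counts rest on arrays that differ widely within a group. The count in FSAP-deficient livers lay between 8 without FSAP-deficient BDL replicate 3 and 22 without WT BDL replicate 2, which enters through the shared estimate of spread. The fit without the 3 arrays with Y-linked signal left FSAP-deficient BDL replicate 3 alone in its group, so its count is not given. In that fit the calls of Mvk, Pmvk, Fdps, Tm7sf2, Hsd17b7, Insig1 and Abcg5 were lost and that of Dhcr7 was gained. In WT livers the count lay between 9 without WT BDL replicate 3 and 21 without WT BDL replicate 2. It was 10 without WT sham replicate 1 and likewise 10 without WT sham replicate 2.

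The first stretch of the pathway, from acetyl-CoA to farnesyl diphosphate, held 7 enzymes, of which 3 fell in FSAP-deficient and 3 in WT livers. Over all tested genes 22.8% fell in FSAP-deficient and 17.7% in WT livers. Fdps, which makes farnesyl diphosphate, had 5.13, 4.06 and 3.56 in FSAP-deficient livers after BDL, against 6.46, 5.83 and 6.67 after sham. In WT livers it had 2.00, 5.44 and 3.23 after BDL and 6.14, 6.15 and 6.19 after sham. All BDL arrays of each genotype lay below all its sham arrays, and WT BDL replicate 2 lay closest to sham. Fdps fell by 2.07 (SE 0.70, adjusted p = 0.0379) in FSAP-deficient livers and by 2.60 (SE 0.70, adjusted p = 0.0159) in WT livers on the log2 scale. Each result was recomputed under 23 alternatives, or 22 for the interaction of genotype and BDL, which changed the scaling, background correction, filter, probe rule, values, blocks or samples. The FSAP-deficient call of Fdps was lost in 14 of them, among these the fits with slide as a fixed block, without any one of the 6 sham arrays and those without FSAP-deficient BDL replicate 2 or 3, with an adjusted p of up to 0.123. The WT call was lost in 1, without WT BDL replicate 3, with an adjusted p of 0.0511. For every gene, slide as a fixed block takes the WT change after BDL from slide 1 only, with WT BDL replicate 1 and the 3 WT sham arrays. It takes the FSAP-deficient change from slide 3 only, with FSAP-deficient sham replicate 3 as the sham array. Leaving out an array of the other genotype alters only the shared spread, not the change itself.

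Pmvk, phosphomevalonate kinase, had 4.09, 3.57 and 3.31 in FSAP-deficient livers after BDL and 4.89, 4.66 and 5.72 after sham. Its WT values were 2.81, 4.70 and 3.15 after BDL against 5.07, 5.19 and 5.10 after sham. Neither pair of groups overlapped, although WT BDL replicate 2 again stood well above its 2 group mates. The gene fell by 1.44 (SE 0.44, adjusted p = 0.0255) in FSAP-deficient and by 1.57 (SE 0.44, adjusted p = 0.0200) in WT livers. Mvk, mevalonate kinase, had 3.46, 2.36 and 2.47 after BDL in FSAP-deficient livers and 4.26, 3.96 and 4.83 after sham. Among WT livers the values were 1.89, 3.96 and 2.55 after BDL and 4.03, 4.04 and 4.22 after sham. The groups did not overlap in either genotype, but WT BDL replicate 2 almost reached the lowest sham array. Mvk fell by 1.59 (SE 0.47, adjusted p = 0.0215) in FSAP-deficient livers, and its WT change was -1.30 (SE 0.47, adjusted p = 0.0567).

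Mvd, which decarboxylates mevalonate diphosphate, had 0.63, -0.32 and -0.45 in FSAP-deficient livers after BDL and 1.13, 1.17 and 2.44 after sham. It had -1.64, 0.89 and -0.87 in WT livers after BDL and 1.92, 1.59 and 0.93 after sham. BDL arrays lay below sham arrays in both genotypes, by a narrow margin for WT BDL replicate 2. Mvd fell by 2.02 (SE 0.60, adjusted p = 0.0256) in WT livers and had a change of -1.63 (SE 0.60, adjusted p = 0.0540) in FSAP-deficient livers. The calls of Pmvk, Mvk and Mvd were each lost without at least 1 single array. Those arrays were FSAP-deficient sham replicate 3 and FSAP-deficient BDL replicates 2 and 3 for Mvk and for Pmvk in FSAP-deficient livers, with adjusted p up to 0.0819 for Mvk and 0.0958 for Pmvk. In WT livers they were WT sham replicates 1 and 2 and WT BDL replicates 1 and 3 for Pmvk and Mvd, and also WT sham replicate 3 for Pmvk, with adjusted p up to 0.0710 for Pmvk and 0.0863 for Mvd. Quantile normalization and the authors' processed values also each lost the FSAP-deficient calls of Mvk and Pmvk and the WT call of Pmvk.

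Hmgcs1, which makes HMG-CoA, and Idi1, which isomerises isopentenyl diphosphate, moved as far without passing the threshold. Hmgcs1 had 6.16, 4.29 and 4.47 in FSAP-deficient livers after BDL and 6.34, 6.17 and 7.21 after sham, and its change was -1.60 (SE 0.74, adjusted p = 0.113). WT livers gave 2.95, 6.25 and 3.81 after BDL and 6.39, 6.27 and 6.54 after sham, a change of -2.06 (SE 0.74, adjusted p = 0.0546). One array of each BDL group, FSAP-deficient replicate 1 and WT replicate 2, stood at the edge of its sham range. Idi1 showed the widest spread of the enzymes, with 0.44, 4.61 and 2.01 in WT livers after BDL against 4.66, 4.48 and 4.97 after sham. Its change was -2.35 (SE 0.83, adjusted p = 0.0501) in WT livers and -1.71 (SE 0.83, adjusted p = 0.127) in FSAP-deficient livers. Acat2, the cytosolic thiolase that joins 2 acetyl-CoA, was the exception among the enzymes. It lay between 4.39 and 5.02 on all 12 arrays and changed by -0.23 (SE 0.15, adjusted p = 0.254) in FSAP-deficient and -0.05 (SE 0.15, adjusted p = 0.817) in WT livers. Thiolase genes have near copies, and whether the Acat2 probe also reads one of them was not tested. Cross-reading was not tested for the probes of the other members either.

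From squalene synthase on there were 10 enzymes, of which 5 fell in FSAP-deficient and 6 in WT livers. Of all tested genes 22.8% fell in FSAP-deficient and 17.7% in WT livers. Ebp and Sc5d, the sterol isomerase and desaturase of the late steps, gave the steadiest calls of all enzymes. Ebp, with its probe at chrX:7762463-7762522 on the minus strand, had 5.35, 5.17 and 4.79 in FSAP-deficient livers after BDL against 6.67, 6.44 and 6.55 after sham. Among WT livers the values were 4.79, 5.25 and 4.73 after BDL against 6.58, 6.61 and 6.70 after sham. The gap between the operations was wider than the spread within any group, and WT BDL replicate 2 was the highest WT BDL array by less than 1 unit. Ebp fell by 1.45 (SE 0.18, adjusted p = 0.000193) in FSAP-deficient and by 1.71 (SE 0.18, adjusted p = 8.7e-05) in WT livers, and it kept both calls in 23 of 23 alternatives.

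Sc5d, with its probe at chr9:42062857-42062916 on the minus strand, had 3.50, 2.74 and 2.20 in FSAP-deficient livers after BDL and 4.95, 4.75 and 5.17 after sham. Its WT values were 1.71, 3.46 and 2.12 after BDL and 4.98, 5.03 and 4.98 after sham. No BDL array reached a sham array. Sc5d fell by 2.15 (SE 0.42, adjusted p = 0.0024) in FSAP-deficient livers and fell by 2.57 (SE 0.42, adjusted p = 0.00106) in WT livers, again with both calls kept in 23 of 23 alternatives. Tm7sf2, a sterol reductase, had 4.24, 3.70 and 2.93 in FSAP-deficient livers after BDL and 5.88, 5.43 and 5.75 after sham. WT livers gave 1.55, 4.46 and 2.55 after BDL and 6.09, 6.07 and 6.03 after sham. The groups did not overlap, and the WT change was the most negative of the 28 members. Tm7sf2 fell by 2.06 (SE 0.59, adjusted p = 0.0178) in FSAP-deficient and by 3.21 (SE 0.59, adjusted p = 0.00203) in WT livers. Its second probe gave -2.04 in FSAP-deficient and -3.19 in WT livers. The FSAP-deficient call was lost without FSAP-deficient BDL replicate 3 (adjusted p = 0.0681) and with slide as a fixed block (-2.12 within slide 3). It was also lost without the arrays with Y-linked signal, which left FSAP-deficient BDL replicate 3 alone in its group.

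Hsd17b7, a ketosteroid reductase of the demethylation steps, had 0.83, 0.12 and 0.31 in FSAP-deficient livers after BDL and 1.79, 1.65 and 2.41 after sham. It had -0.28, 1.28 and -0.00 in WT livers after BDL and 1.54, 1.53 and 1.53 after sham. WT BDL replicate 2 came close to sham, and BDL and sham groups did not overlap. The gene fell by 1.53 (SE 0.37, adjusted p = 0.00737) in FSAP-deficient and by 1.20 (SE 0.37, adjusted p = 0.0275) in WT livers. Fdft1, squalene synthase, had 2.85, 1.65 and 1.61 in FSAP-deficient livers after BDL and 3.17, 3.5 and 4.0 after sham. Its WT values were 0.94, 2.80 and 1.65 after BDL and 3.54, 3.49 and 3.17 after sham, so the groups did not overlap. Fdft1 fell by 1.52 (SE 0.46, adjusted p = 0.0231) in FSAP-deficient and by 1.61 (SE 0.46, adjusted p = 0.0205) in WT livers, while a second, dimmer probe gave -0.34 and -0.33. Both calls of Fdft1 were lost when all probes of a gene were averaged. Dhcr7, which makes cholesterol from its last precursor, had 1.74, 1.80 and 0.03 in FSAP-deficient livers after BDL and 2.24, 2.38 and 2.70 after sham. In WT livers it had 0.26, 1.99 and 0.27 after BDL and 2.56, 2.58 and 2.60 after sham. FSAP-deficient BDL replicate 3 and WT BDL replicates 1 and 3 were the low arrays, and no groups overlapped. Dhcr7 fell by 1.74 (SE 0.52, adjusted p = 0.0247) in WT livers and had a change of -1.25 (SE 0.52, adjusted p = 0.0791) in FSAP-deficient livers. The WT calls of Hsd17b7, Fdft1 and Dhcr7 were each lost without WT sham replicate 1 or 2 or WT BDL replicate 1 or 3, and those of Hsd17b7 and Dhcr7 also without WT sham replicate 3. Across the alternatives the WT adjusted p reached 0.0934 for Hsd17b7, 0.0677 for Fdft1 and 0.0887 for Dhcr7. The WT call of Dhcr7 was also lost with slide as a fixed block, where WT BDL replicate 1 alone gave -2.32. Without the arrays with Y-linked signal, which left FSAP-deficient BDL replicate 3 alone in its group, the FSAP-deficient call of Hsd17b7 was lost. The FSAP-deficient call of Fdft1 was lost without FSAP-deficient sham replicate 2 or 3 or FSAP-deficient BDL replicate 2 or 3. It was also lost with quantile normalization and with the authors' processed values. Across the alternatives its adjusted p reached 0.0810.

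The other 4 late enzymes passed the threshold in neither genotype. Sqle, squalene epoxidase, Lss, lanosterol synthase, Cyp51, which demethylates lanosterol, and Nsdhl, of the next demethylation, had changes of -1.34 to -1.74 in FSAP-deficient livers and -1.28 to -2.0 in WT livers. Sqle had 1.27, 4.20 and 2.47 in WT livers after BDL, against 4.02, 3.86 and 4.10 after sham, with WT BDL replicate 2 above every sham array. Lss and Cyp51 showed the same order on that array.

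Replicates of a BDL group differed in the whole set of enzymes at once. WT BDL replicate 2 was the highest of its group for 17 of 17 enzymes, as it was for 28.3% of all tested genes, and WT BDL replicate 1 was the lowest for 15 of 17, as it was for 34.2% of all tested genes. Measured from the WT sham mean, the median of the enzymes was -2.81 on replicate 1, -0.26 on replicate 2 and -2.01 on replicate 3 of the WT BDL group. Replicate 2 shared its slide with replicate 3. On replicate 2, 11 enzymes were still below every WT sham array, as 43.5% of all tested genes were, and 3 were above all of them, against 37.3%. The Tm7sf2, Ebp and Sc5d values of that array were 4.46, 5.25 and 3.46, below sham by more than 1 unit each. For the 11 other members the median from sham was -0.40 on replicate 1, -0.89 on replicate 2 and -0.78 on replicate 3.

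In FSAP-deficient livers after BDL, replicate 1 was the highest for 15 of 17 enzymes, against 27.6% of all tested genes, and the medians from sham were -0.88, -1.89 and -2.03. Sham replicate 3 of that genotype was likewise the highest of its group for 15 of 17, against 30% of all tested genes. The 3 WT sham arrays had no common order, each being the highest for 6, 2 and 9 enzymes. For all tested genes these shares were 25.7%, 38.3% and 35.9%. The median SD of the enzymes was 0.66 after BDL and 0.42 after sham in FSAP-deficient livers, where all tested genes had 0.29 and 0.24. In WT livers it was 1.30 after BDL and 0.12 after sham, where all tested genes had 0.24 and 0.16. What set these mice apart was not tested.

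**Figure D2:**
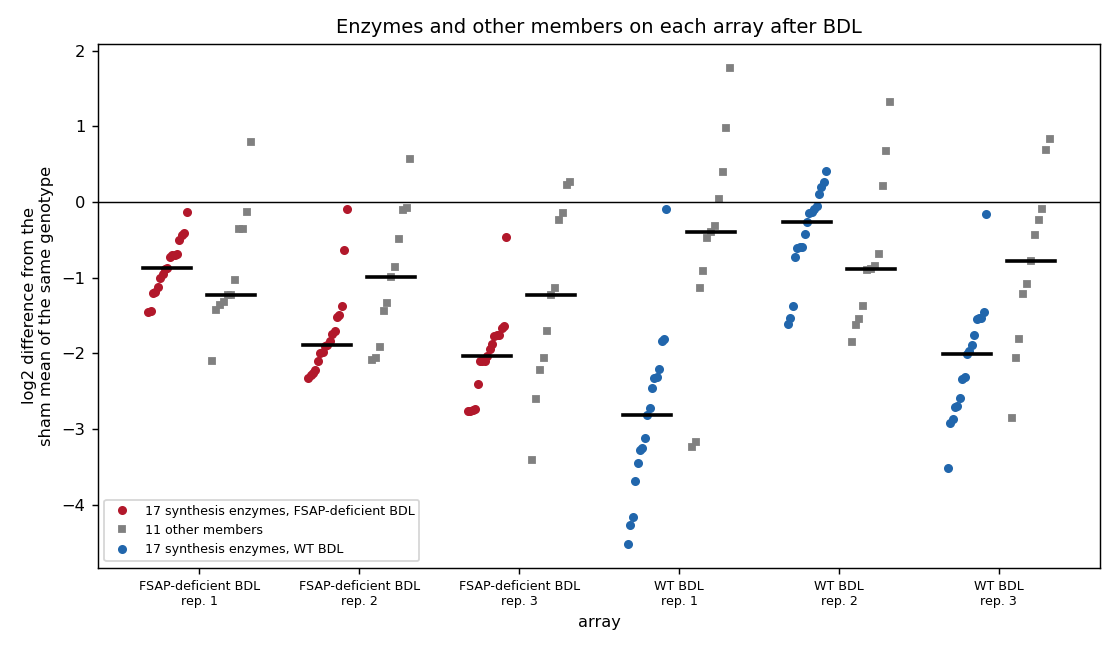
Log2 difference of every member from the sham mean of its genotype on each BDL array, as coloured points for the 17 enzymes and grey squares for the 11 other members, with horizontal bars at the medians. The enzyme median is -0.26 on WT BDL replicate 2 and between -0.88 and -2.81 on the other 5 arrays.

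Without WT BDL replicate 1, 4 of 17 enzymes passed the threshold in WT livers, with a median change of -1.37, and without WT BDL replicate 3, 3 of 17 did, with -1.61. In these fits 31.4% and 27.2% of all tested genes were called in either direction. Without WT BDL replicate 2, 16 of 17 enzymes fell in WT livers, with a median change of -2.32, where 24.8% of all tested genes were called. In FSAP-deficient livers 15 of 17 then passed the threshold, where 37.7% of all tested genes were called. Only the shared spread had changed there, and the median stayed at -1.53. The FSAP-deficient count was 11 of 17 without FSAP-deficient BDL replicate 1, with a median of -1.93. It was 4 of 17 without FSAP-deficient BDL replicate 2 and 3 of 17 without FSAP-deficient BDL replicate 3, with medians of -1.39 and -1.31. In these fits, in the same order, 35.3%, 35.2% and 32.8% of all tested genes were called. Within slide 3, which held all 3 FSAP-deficient BDL arrays and FSAP-deficient sham replicate 3, the sham array on which most enzymes were highest, the median of the enzymes was -2.06, against -0.17 for all tested genes. Within slide 1, with WT BDL replicate 1, the lowest of its group for most enzymes, and 3 sham arrays, it was -2.81, against 0.01 for all tested genes. All 17 enzymes were negative within each of these slides.

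**Figure D3:**
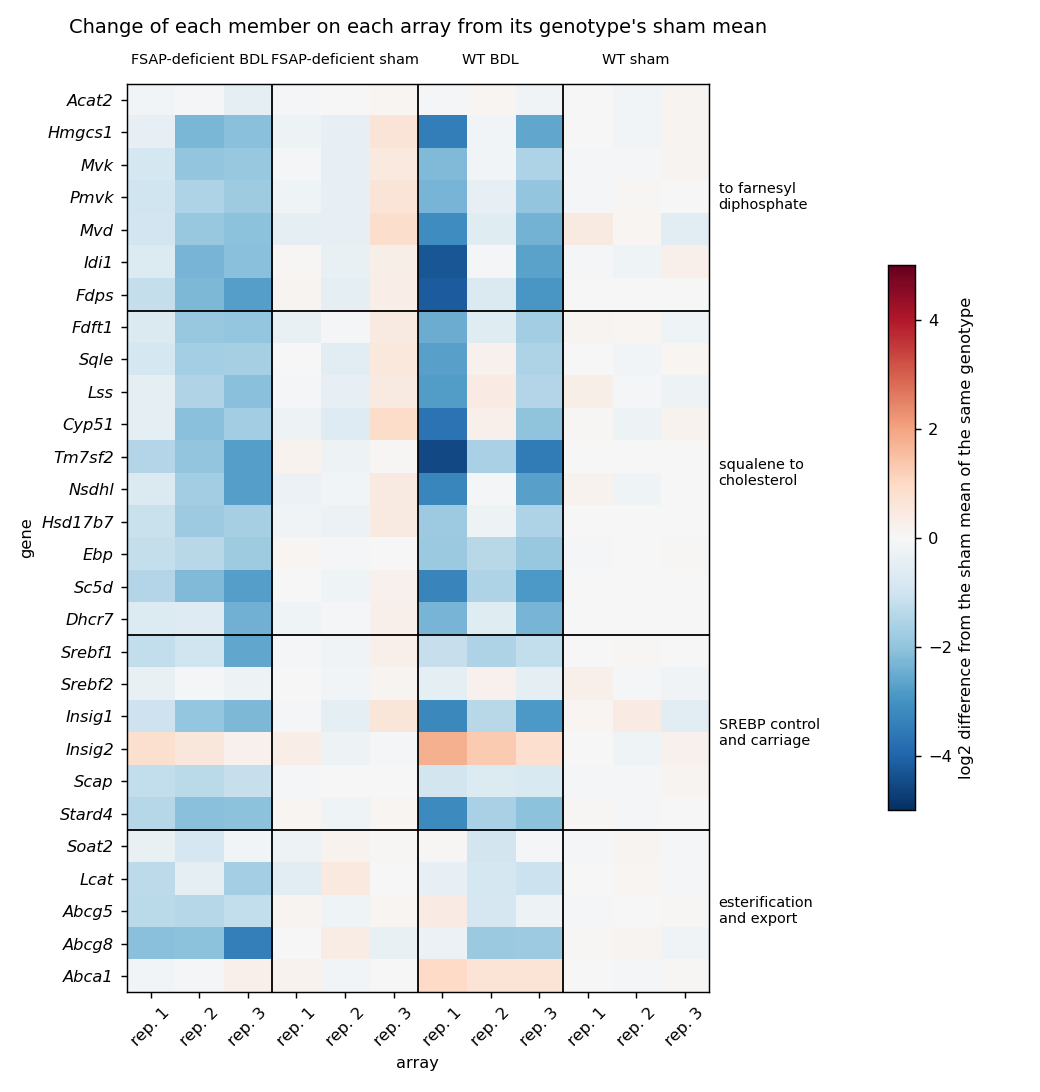
Log2 difference of each of the 28 genes (rows, by role) on each of the 12 arrays (columns) from the sham mean of the same genotype, from blue (lower) to red (higher). Most enzyme cells are blue after BDL in both genotypes; on WT BDL replicate 2 they are paler, and those of Acat2, Sqle, Lss and Cyp51 are faintly red there, while the Insig2 row is the one that is red on all 6 BDL arrays.

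The genes that control synthesis divided. Insig1, itself known as a target of SREBP, had 1.12, 0.23 and -0.08 in FSAP-deficient livers after BDL and 2.04, 1.65 and 2.76 after sham. WT livers gave -1.15, 0.70 and -0.78 after BDL and 2.19, 2.51 and 1.54 after sham. No groups overlapped, and WT BDL replicate 2 was again the highest of its group. Insig1 fell by 1.73 (SE 0.50, adjusted p = 0.0193) in FSAP-deficient and by 2.49 (SE 0.50, adjusted p = 0.00345) in WT livers. The FSAP-deficient call was lost without FSAP-deficient sham replicate 3 or FSAP-deficient BDL replicate 2 or 3, with adjusted p up to 0.0728.

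Insig2, the second gene of the pair, went the other way. It had 4.07, 3.84 and 3.51 in FSAP-deficient livers after BDL and 3.61, 3.04 and 3.19 after sham, and the highest sham array exceeded the lowest BDL array. Among WT livers the values were 4.88, 4.43 and 3.93 after BDL and 3.11, 2.91 and 3.31 after sham, with no overlap. Insig2 rose by 1.31 (SE 0.26, adjusted p = 0.00295) in WT livers, a call kept in 23 of 23 alternatives, and had a change of 0.53 (SE 0.26, adjusted p = 0.126) in FSAP-deficient livers. The second Insig2 probe gave 0.42 in FSAP-deficient and 1.03 in WT livers. With quantile normalization, normexp background correction or the authors' processed values the FSAP-deficient change passed the threshold, with 0.89 on the log2 scale under quantile normalization.

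Scap, the escort of SREBP, had 3.53, 3.43 and 3.63 in FSAP-deficient livers after BDL and 4.71, 4.80 and 4.78 after sham. Its WT values were 3.79, 4.01 and 3.93 after BDL and 4.64, 4.61 and 4.85 after sham. The arrays of each group lay close together and BDL stood below sham in both genotypes, also on WT BDL replicate 2. Scap fell by 1.24 (SE 0.13, adjusted p = 6.1e-05) in FSAP-deficient and by 0.79 (SE 0.13, adjusted p = 0.000969) in WT livers. Stard4, a carrier of cholesterol in the cytosol, had 1.97, 1.31 and 1.33 in FSAP-deficient livers after BDL and 3.51, 3.20 and 3.50 after sham. In WT livers it had 0.11, 1.65 and 1.22 after BDL and 3.34, 3.21 and 3.28 after sham, so that every BDL array lay over 1 unit below every sham array. Stard4 fell by 1.86 (SE 0.33, adjusted p = 0.00152) in FSAP-deficient and by 2.29 (SE 0.33, adjusted p = 0.000560) in WT livers, and Scap and Stard4 kept all their calls in 23 of 23 alternatives.

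Srebf1 encodes the SREBP that mainly drives fatty acid synthesis, and which of its isoforms its 1 probe reads was not looked up. It had -0.20, 0.04 and -1.58 in FSAP-deficient livers after BDL and 0.96, 0.84 and 1.27 after sham. Its WT values were 0.11, -0.30 and 0.03 after BDL and 1.24, 1.30 and 1.21 after sham. Here WT BDL replicate 2 was the lowest and not the highest of its group. Srebf1 fell by 1.61 (SE 0.34, adjusted p = 0.00412) in FSAP-deficient and by 1.30 (SE 0.34, adjusted p = 0.0142) in WT livers. The WT call was lost without WT BDL replicate 2 (adjusted p = 0.0529) and with slide as a fixed block, where WT BDL replicate 1 alone gave -1.14. Srebf2, the main SREBP of cholesterol synthesis, lay between -1.55 and -0.71 on all arrays and its groups overlapped. Its change was -0.23 (SE 0.20) in both genotypes, with adjusted p of 0.415 in FSAP-deficient and 0.412 in WT livers. A second, dimmer Srebf2 probe gave 0.94 in FSAP-deficient and 0.84 in WT livers, so the probes of Srebf2 disagree in direction.

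**Figure D4:**
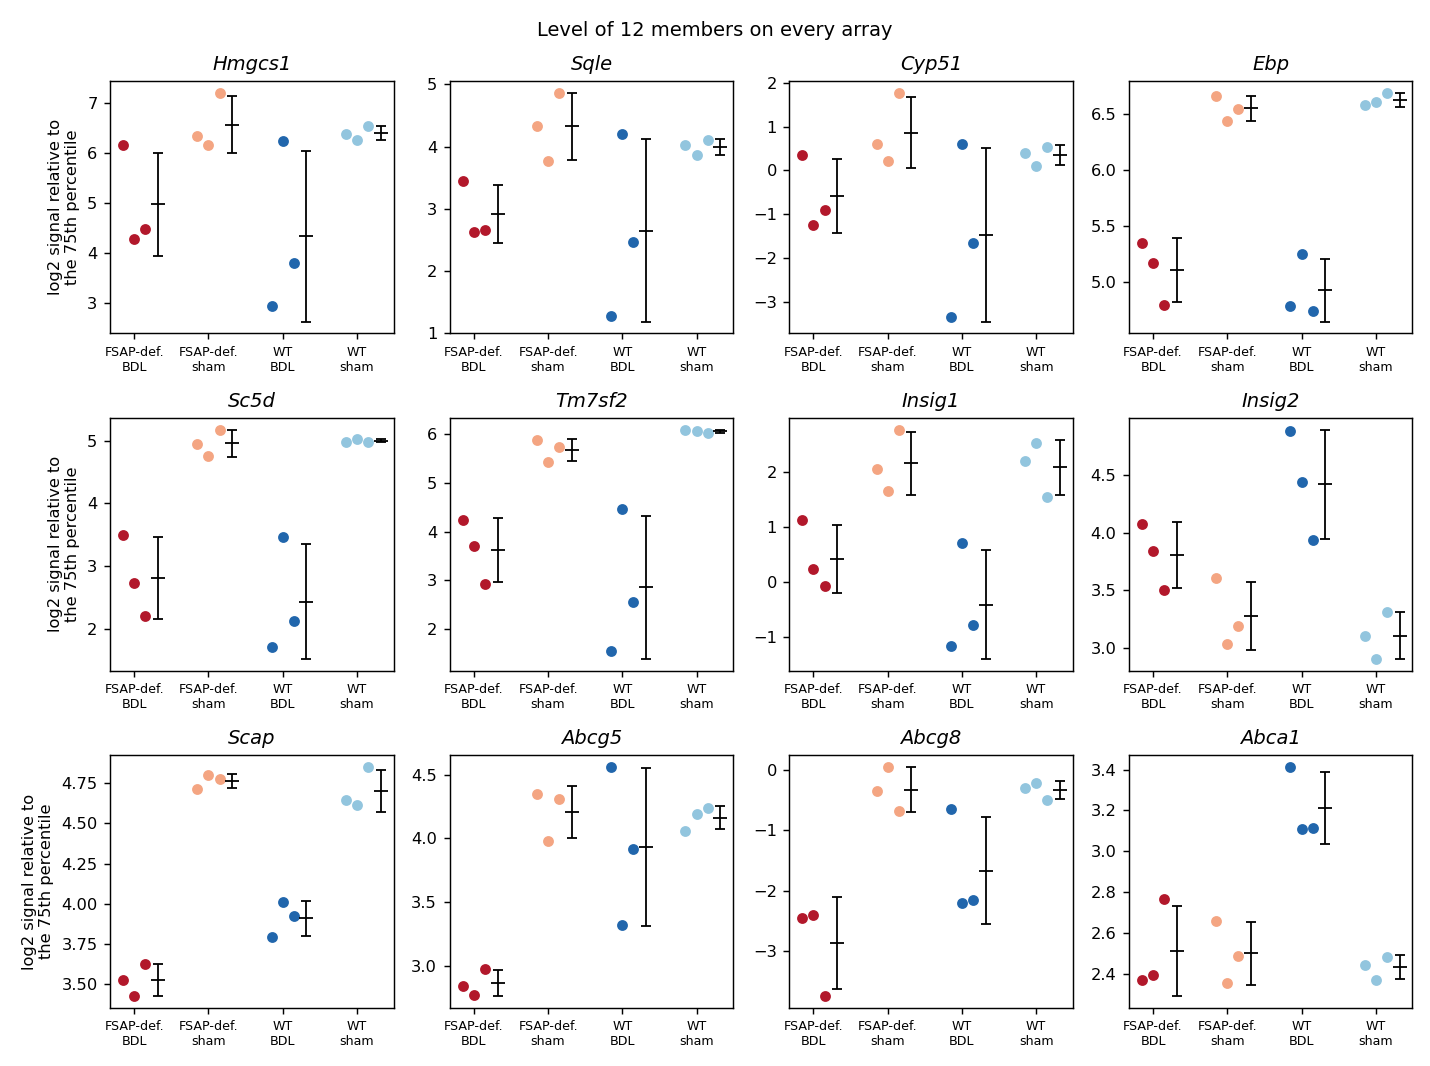
Levels of 12 members on every array, as log2 signal relative to the 75th percentile, for FSAP-deficient BDL, FSAP-deficient sham, WT BDL and WT sham livers; points are arrays in the order of replicates 1 to 3, and bars are the mean ± SD of n = 3. The scale differs between genes. WT BDL replicate 2 sits at the sham level for Hmgcs1, Sqle and Cyp51, and the 3 FSAP-deficient BDL arrays sit below all other arrays for Abcg5, Abcg8 and Scap.

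Of the 5 genes of esterification and export, 3 fell in FSAP-deficient livers, where 22.8% of all tested genes fell. In WT livers 1 fell and 1 rose, near the 17.7% and 15.1% of all tested genes. Abcg8, with its probe at chr17:85098745-85098804 on the plus strand, had -2.44, -2.40 and -3.74 in FSAP-deficient livers after BDL and -0.36, 0.05 and -0.69 after sham. It had -0.65, -2.20 and -2.15 in WT livers after BDL and -0.30, -0.22 and -0.51 after sham. The FSAP-deficient BDL arrays were the lowest of all 12, and WT BDL replicate 1 stood next to its sham group. Abcg8 fell by 2.53 (SE 0.45, adjusted p = 0.00141) in FSAP-deficient livers, kept in 23 of 23 alternatives. In WT livers it fell by 1.33 (SE 0.45, adjusted p = 0.0424), a call lost in 10 of 23 alternatives. Among these were the fits without WT sham replicate 1, 2 or 3, WT BDL replicate 2 or 3, or FSAP-deficient sham replicate 1 or 3, with adjusted p from 0.0506 to 0.144. With slide as a fixed block the WT change was -0.31, from WT BDL replicate 1 alone against the WT sham arrays.

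Abcg5, the partner of Abcg8, was measured by a probe at chr17:85057593-85057652 on the minus strand. It had 2.85, 2.77 and 2.98 in FSAP-deficient livers after BDL and 4.35, 3.98 and 4.31 after sham. Among WT livers the values were 4.56, 3.32 and 3.92 after BDL and 4.06, 4.19 and 4.24 after sham. The FSAP-deficient groups did not overlap, whereas WT BDL replicate 1 lay above all WT sham arrays. Abcg5 fell by 1.34 (SE 0.26, adjusted p = 0.00227) in FSAP-deficient livers, and its WT change was -0.23 (SE 0.26, adjusted p = 0.533). The FSAP-deficient call was lost without the arrays with Y-linked signal, which left FSAP-deficient BDL replicate 3 alone in its group.

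Abca1, which loads cholesterol onto apolipoprotein A-I, had 2.37, 2.40 and 2.77 in FSAP-deficient livers after BDL and 2.66, 2.35 and 2.49 after sham. WT livers gave 3.41, 3.11 and 3.12 after BDL and 2.45, 2.37 and 2.48 after sham. The 3 WT BDL arrays stood above the other 9. Abca1 rose by 0.78 (SE 0.16, adjusted p = 0.00337) in WT livers, a call kept in 23 of 23 alternatives, and its FSAP-deficient change was 0.01 (SE 0.16, adjusted p = 0.964). Lcat, which esterifies cholesterol in plasma lipoproteins, had 2.97, 3.81 and 2.59 in FSAP-deficient livers after BDL and 3.78, 4.80 and 4.32 after sham. It had 4.18, 3.69 and 3.50 in WT livers after BDL and 4.60, 4.68 and 4.47 after sham. FSAP-deficient groups overlapped by 1 array, and WT groups did not overlap. Lcat fell by 1.17 (SE 0.33, adjusted p = 0.0170) in FSAP-deficient livers and had a change of -0.79 (SE 0.33, adjusted p = 0.0910) in WT livers. The FSAP-deficient call was lost in 7 alternatives. Among them were slide as a fixed block (-1.19 within slide 3) and the fits without FSAP-deficient sham replicate 2 or FSAP-deficient BDL replicate 1 or 3. Soat2, the cholesterol esterifying enzyme of hepatocytes, lay between 1.85 and 3.00 with overlapping groups, and its changes were -0.45 (SE 0.26) and -0.32 (SE 0.26).

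Between genotypes, no member differed past the threshold. After BDL 0 of 28 were called in FSAP-deficient against WT livers, where 0.215% of all tested genes were, and limma gave 5 members with an unadjusted p below 0.05 (Insig2, Scap, Abcg5, Abcg8 and Abca1), as 12.9% of all tested genes had. After the sham operation 0 of 28 were called, where 0.0154% of all tested genes were, and 0 had an unadjusted p below 0.05, against 7.88% of all tested genes. The enzymes overlapped between FSAP-deficient and WT livers after BDL in 17 of 17 cases. Their median difference, FSAP-deficient minus WT, was 0.35 after BDL, positive for 15 of 17, and 0.16 after sham, with medians of -0.03 and 0.04 over all tested genes. The difference after BDL was 0.97 without WT BDL replicate 2, -0.08 without WT BDL replicate 1 and -0.92 with slide as a fixed block. Without the arrays with Y-linked signal, which left FSAP-deficient BDL replicate 3 alone in its group, the difference was -0.13. For single enzymes the difference after BDL, with all arrays, had a wide interval: Tm7sf2 differed by 0.77 (95% interval -0.52 to 2.07) and Ebp by 0.18 (95% interval -0.22 to 0.59).

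In 4 members, 14.3%, every FSAP-deficient BDL array lay below every WT BDL array, as it did for 8.95% of all tested genes, and in 0 members above, against 6.65%. Those 4 were Abcg5, Abcg8, Abca1 and Scap. The differences, FSAP-deficient minus WT, were -1.07 for Abcg5 (SE 0.26, adjusted p = 0.123), -1.19 for Abcg8 (SE 0.45, adjusted p = 0.298), -0.70 for Abca1 (SE 0.16, adjusted p = 0.107) and -0.38 for Scap (SE 0.13, adjusted p = 0.236). After sham the same differences were 0.05, 0.01, 0.07 and 0.06. The after-BDL difference of Abcg5 reached -1.37 with an adjusted p of 0.0331 without WT BDL replicate 2, the one alternative of 23 in which a member was called. Abcg8 turned to 0.05 with slide as a fixed block. The 8 hepatocyte markers had a median difference of -0.35 after BDL and the 7 stellate cell markers one of 1.32, and their part in these differences was not tested.

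Whether BDL acted differently in the genotypes was tested by the interaction term, in which 0 of 28 members were called, where 0.0102% of all tested genes were, and 3 had an unadjusted p below 0.05 (Scap, Abcg5 and Abca1), as 13.7% of all tested genes had. The BDL change in FSAP-deficient minus that in WT livers was -1.11 for Abcg5 (95% interval -1.92 to -0.31, adjusted p = 0.223), -0.77 for Abca1 (95% interval -1.25 to -0.28, adjusted p = 0.17) and -0.44 for Scap (95% interval -0.84 to -0.05, adjusted p = 0.316). For the enzymes the median was 0.26, positive for 12 of 17, and it was 0.93 without WT BDL replicate 2 and -0.24 without WT BDL replicate 1. A member past the threshold in 1 genotype and not in the other is therefore not shown to differ between them.

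A further 15 genes of sterol biology outside the 28 were listed by their roles, with earlier results of these data known. In FSAP-deficient livers 5 fell and 3 rose after BDL, where 22.8% of all tested genes fell and 16.2% rose. In WT livers 5 fell and 1 rose, where 17.7% and 15.1% of all tested genes did. Msmo1, the sterol C4 methyl oxidase missing from the 17 enzymes, had -1.98 (SE 0.73, adjusted p = 0.0526) in FSAP-deficient and fell by 2.60 (SE 0.73, adjusted p = 0.0195) in WT livers. Aacs, which feeds ketone bodies into sterol synthesis, fell by 2.38 (SE 0.53, adjusted p = 0.00509) in FSAP-deficient and by 3.84 (SE 0.53, adjusted p = 0.000388) in WT livers. Abcg1, an exporter of cholesterol to lipoproteins, rose by 1.90 (SE 0.23, adjusted p = 0.000139) in FSAP-deficient and by 1.11 (SE 0.23, adjusted p = 0.00383) in WT livers. Nr1h3, the oxysterol receptor LXR-alpha, fell by 0.90 (SE 0.17, adjusted p = 0.00208) in FSAP-deficient livers and had -0.44 (SE 0.17, adjusted p = 0.0691) in WT livers. By limma, 0 of the 15 were called between genotypes after BDL, between genotypes after sham or in the interaction, where 2, 0 and 2 had an unadjusted p below 0.05, against 12.9%, 7.88% and 13.7% of all tested genes.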

How the data were processed

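Total RNA of 12 livers, 1 per array, was labelled with Cy3, with a RNA integrity number of at least 7.2 and 100 ng of input, per the labels' protocols. The deposited scanner files give linear spot intensity, background-subtracted and detrended within each array but unscaled across arrays, per the file headers (Agilent Feature Extraction 10.5.1.1, protocol GE1_105_Jan09). The deposited series matrix holds the authors' log2 value per probe, made by a method not given in the sources used here, and served as an alternative.

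Here the log2 intensity minus each array's 75th percentile was taken, without control spots and the 98 to 193 outlier spots per array; no spot was saturated. Repeated spots were averaged and each gene was read from its brightest probe. A gene was tested if 3 or more of the 12 arrays had it well above background, as 19531 of 31870 did. A limma 3.58.1 model (R 4.3.3) of the 4 group means had 8 residual and 2.69 prior degrees of freedom. Tests were two-sided, adjusted by Benjamini-Hochberg at 0.05, over 5 comparisons, with no block. The fit was tested on simulated data.

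RefSeq accessions of 26412 of 33063 probes matched the reference table and updated 3093 names; the 37 probes of the members were the same by either name. FSAP-deficient sham replicate 1 took gene names through shared probe identifiers.

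Values on every array are given for members past the threshold in at least 1 comparison or differing in direction between genotypes, and for some others chosen after their values were seen. The members and lists were chosen with earlier results of these data known, so their counts and medians are descriptions without a test of the list. The labels state no pairing of samples by replicate number. Over all 18 same-numbered pairs the correlation of deviations ran from -0.20 to 0.19, and 2 pairs lay above 0.1. With 3 arrays per group, such correlations cannot show whether mice were paired. With 3 mice per group, the number of arrays sets the precision.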

Additional observations from a re-analysis of the deposited data

How the results depend on the processing

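No called member turned direction under any of the 23 alternatives. In FSAP-deficient livers after BDL against sham, the count of 15 called members lay between 8 (without FSAP-deficient BDL replicate 3) and 22 (without WT BDL replicate 2) when 1 replicate was left out. No count is given for the fit without the arrays with Y-linked signal, which left FSAP-deficient BDL replicate 3 alone in its group. In WT livers after BDL against sham, the count of 16 lay between 9 (without WT BDL replicate 3) and 21 (without WT BDL replicate 2), with 10 without WT sham replicate 1 or 2. Between FSAP-deficient and WT livers after BDL it lay between 0 and 1, the 1 being Abcg5 without WT BDL replicate 2. After sham and in the interaction it was 0 in every alternative by limma. Median scaling gave 19 called members in FSAP-deficient and 21 in WT livers after BDL, quantile normalization 11 and 15, the authors' log2 values 11 and 15, and slide as a fixed block 13 and 19. The replicate block gave 14 in FSAP-deficient and 16 in WT livers after BDL, and 0 in the other 3 comparisons. The cause of these shifts was not tested, except that a left-out array leaves fewer samples.

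No slide held both genotypes after the same operation. A fit with slide as a fixed block compares the genotypes through slide 2, which held WT BDL replicates 2 and 3 and FSAP-deficient sham replicate 2. It gave a median enzyme difference after BDL, FSAP-deficient minus WT, of -0.92, where the fit without it gave 0.35. Within a genotype, the fixed slide block compares BDL with sham on slide 1 alone in WT and on slide 3 alone in FSAP-deficient livers. Its counts of called members therefore rest on WT BDL replicate 1 and on FSAP-deficient sham replicate 3. The SE of the enzymes in these comparisons ran from 0.15 to 0.83 with a median of 0.587, against a median of 0.223 for all tested genes.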
